A study of Homo sapiens with 3 samples.

Results

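The genes described are 10 components of the actin cytoskeleton that are known or proposed targets of serum response factor (SRF), namely *TAGLN*, *TAGLN2*, *ACTB*, *ACTG1*, *CNN1*, *CNN2*, *TPM1*, *TPM2*, *MYL9* and *VCL*. They were selected by symbol from a table of 23131 genes, and all 10 were found. The set was chosen on earlier results from the same 2 libraries, so the values below are a description and carry no test. The table holds RNA-seq of HCT-116 cells, a human colon carcinoma line with wild-type *APC* and a Ser45 deletion in *CTNNB1*, the gene for β-catenin. A library of cells that received a pool of anti-*APC* siRNA on consecutive days was compared with a library of cells that received no siRNA, both harvested 48 hours after the second transfection. The sample title calls the control untransfected, whereas its treatment field says that it received the reagent alone. The untransfected library is called the control below. The remaining library, of cells given pooled scrambled siRNA, was not analysed here, so an effect of siRNA as such cannot be told apart from that of *APC* silencing.

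SRF is a DNA-binding protein that recognises the CArG box, a run of A and T bases between a CC and a GG pair. Of its cofactors of the myocardin family, MRTF-A and MRTF-B are held inactive by unpolymerised actin, whereas myocardin itself, a factor of heart and smooth muscle, is not. When actin polymerises, MRTF-A and MRTF-B enter the nucleus and raise transcription of actin itself and of many proteins that bind it. A second group of cofactors, the ternary complex factors ELK1, ELK3 and ELK4, links SRF to growth factor signalling and to immediate early genes such as *EGR1* and *FOS*. Several of the 10 genes are best known from smooth muscle, and epithelial cells also use this circuit when they spread or come under tension.

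Among the 10 genes *TAGLN*, which encodes the actin-bundling protein transgelin, was 4.36-fold higher after anti-*APC* siRNA. *MYL9*, which encodes a regulatory light chain of non-muscle and smooth muscle myosin II, was 2.36-fold higher. The abundant actin genes differed far less and in opposite directions, with *ACTB* higher by 0.32 and *ACTG1* lower, at -0.10, on the log2 scale. Levels are FPKM (fragments per kilobase of transcript and per fixed number of mapped reads) as deposited, and ratios are anti-*APC* over untransfected without a pseudocount. Where a pair of values is given, that of the anti-*APC* library comes first. With 1 library per condition there is no replicate error for any gene.

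*APC* itself had 3.43 FPKM in the anti-*APC* library against 9.15 FPKM in the control, a ratio of 0.375. The depth was read from the lowest values of the table, where a gene's FPKM is a whole multiple of what 1 read is worth. This worth was higher by 0.13 on the log2 scale in the anti-*APC* library. If FPKM was scaled to mapped reads alone, this places its depth at 91.3% of that of the untransfected library. How the authors' software scaled the libraries was not tested. Transcript lengths of 49 genes with 1 annotated transcript gave a median of 23100000 reads for the untransfected library, with quartiles of 12600000 and 26100000, and so 21100000 for the anti-*APC* library. Read numbers given below follow from this estimate and are approximate. Intervals are exact Clopper-Pearson 95% intervals on these reads and cover counting error only, not the spread between cultures. Their width depends on the estimated reads. Where an end lies very close to 0, as for *TAGLN2* and *TPM2*, whether the interval includes 0 is not settled.

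**Figure D1:**
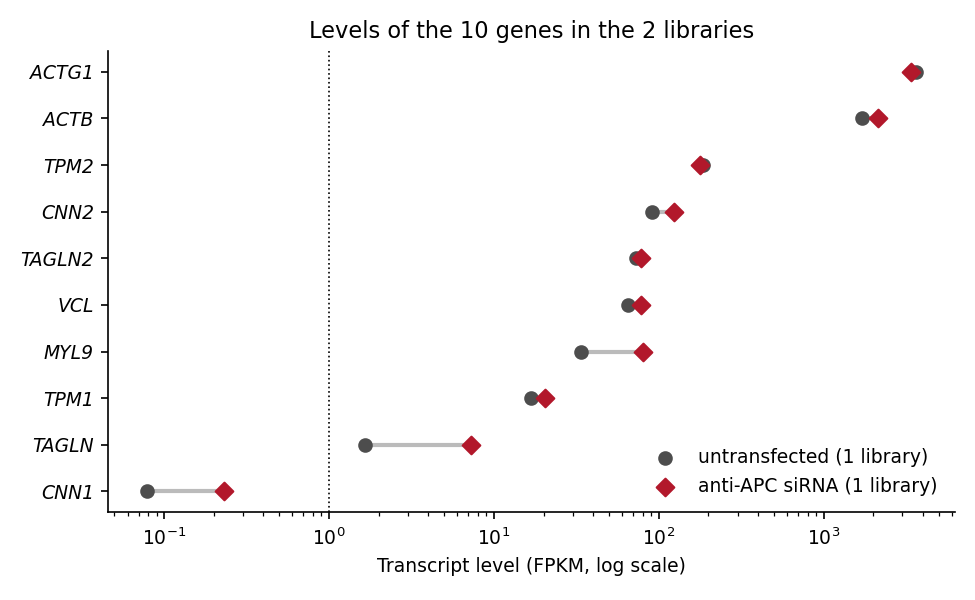
Transcript level of each gene in FPKM on a log scale, for the untransfected library (circles) and the anti-APC siRNA library (diamonds), 1 library each; the dotted line marks 1 FPKM. ACTG1 and ACTB stand highest, between 1699 and 3639 FPKM, CNN1 is under 1 FPKM in both, and the gaps between libraries are widest on this scale for TAGLN, CNN1 and MYL9.

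The levels of the 10 genes spanned more than 4 orders of magnitude, as the plot of levels by library shows. In untransfected cells the order from high to low was *ACTG1*, *ACTB*, *TPM2*, *CNN2*, *TAGLN2*, *VCL*, *MYL9*, *TPM1*, *TAGLN* and *CNN1*. *ACTG1* ranked 14 and *ACTB* 36 by level among the 23131 genes of this library. After anti-*APC* siRNA *TAGLN2*, *VCL* and *MYL9* came in the reverse order and the other genes kept their places. These 3 genes then lay within 77.6 to 79.9 FPKM, so their order in that library is not settled without replicates.

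*TAGLN* had 7.24 FPKM in the anti-*APC* library against 1.66 FPKM in the control. The log2 ratio was 2.12 (counting interval 1.62 to 2.63), which rests on about 170 and 43 reads. This ratio ranked 5 from the top among 11815 genes whose level reached 1 FPKM in the anti-*APC* library and in the control. *TAGLN* remained a low-level transcript all the same, with a level rank of 11502 in the control and 8132 in the anti-*APC* library. In bulk RNA, more transcript in every cell and more cells with the transcript cannot be told apart. The gene lies on chromosome 11 of GRCh37, the build of all gene positions given here, from 117070086 to 117078180 on the plus strand, and its canonical transcript in GENCODE 44 has 5 exons. The table places it from 117070040 to 117075508 and so stops short of the annotated 3′ end. *PCSK7*, which encodes a proprotein convertase, overlaps *TAGLN* on the opposite strand in GENCODE 44, and 39.0% of the 36-base stretches of the *TAGLN* transcript within the table's locus also occur in *PCSK7* transcripts. *PCSK7* had 10.1 FPKM with and 10.8 FPKM without anti-*APC* siRNA, a log2 ratio of -0.10. The table starts *PCSK7* at 117075788, beyond the end of *TAGLN*. The library kit does not mark strand, and how reads of the shared stretches were assigned was not tested. The level of *TAGLN* is uncertain for this reason.

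*TAGLN2*, the paralog found in most tissues, did not share the size of this difference. It had 77.6 FPKM in the anti-*APC* library against 73.1 FPKM in the control, a log2 ratio of 0.09 (counting interval 0.0019 to 0.17). It lies on chromosome 1 from 159887897 to 159895297 on the minus strand. The coding sequences of *TAGLN* and *TAGLN2* are 70.9% identical over 597 aligned bases, and no 36-base stretch of either transcript occurs in the other. Reads of at least this length could therefore be assigned to one or the other, although 16.2% of the 36-base stretches of *TAGLN2* also occur in its pseudogene *TAGLN2P1*. The first 90 coding bases of the 2 genes are shown because they show how far apart these paralogs are, with capitals at the 23 positions where they differ (GENCODE 44 on GRCh37).
TAGLN: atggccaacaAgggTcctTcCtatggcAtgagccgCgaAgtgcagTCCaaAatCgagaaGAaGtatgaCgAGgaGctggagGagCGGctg
TAGLN2: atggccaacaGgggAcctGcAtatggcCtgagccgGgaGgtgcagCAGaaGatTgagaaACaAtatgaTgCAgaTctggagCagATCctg

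Together, *TAGLN*, *TAGLN2* and the neuronal paralog *TAGLN3* summed to 85.05 FPKM in the anti-*APC* library against 74.96 FPKM in the control. *TAGLN* made up 8.51% of this sum with anti-*APC* siRNA and 2.22% without. *TAGLN3* stood at 0.213 and 0.222 FPKM. The difference of 10.1 FPKM in the family sum came from *TAGLN* (5.58 FPKM) and *TAGLN2* (4.52 FPKM). The part of *TAGLN2* depends on the scaling, since its log2 ratio is 0.025 when the libraries are scaled to equal FPKM sums.

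*MYL9* had 79.9 FPKM in the anti-*APC* library against 33.9 FPKM in the control. The log2 ratio was 1.24 (counting interval 1.13 to 1.36) on about 1958 and 908 reads, and it ranked 50 of 11815. *MYL9* lies on chromosome 20 from 35169900 to 35179850 on the plus strand, and the table ends it at 35178226. Its paralogs *MYL12A* and *MYL12B* encode the regulatory light chains that most non-muscle cells use, and both were more abundant. *MYL12A* had 207 FPKM with and 202 FPKM without anti-*APC* siRNA, and *MYL12B* had 427 and 465 FPKM. Over these 3 light chain genes the sum was 714 FPKM with and 701 FPKM without, a difference whose sign turns when the libraries are scaled to equal FPKM sums. The share of *MYL9* was 11.2% with and 4.83% without. The coding sequences of *MYL9* and *MYL12B* are 80.8% identical over 516 bases, against 95.7% for *MYL12A* and *MYL12B*. The first 90 coding bases are shown to make the difference from the abundant paralog visible, with capitals at the 15 positions where they differ.
MYL9: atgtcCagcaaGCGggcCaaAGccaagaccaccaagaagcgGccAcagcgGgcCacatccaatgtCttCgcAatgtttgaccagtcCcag
MYL12B: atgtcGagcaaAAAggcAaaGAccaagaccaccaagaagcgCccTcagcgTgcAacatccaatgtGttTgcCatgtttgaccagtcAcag

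Only 0.71% of the 36-base stretches of *MYL9* within the table's locus occur in another gene, and neither light chain paralog is among these genes. *MYL6*, the essential light chain that pairs with these proteins, had 376 and 360 FPKM.

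**Figure D2:**
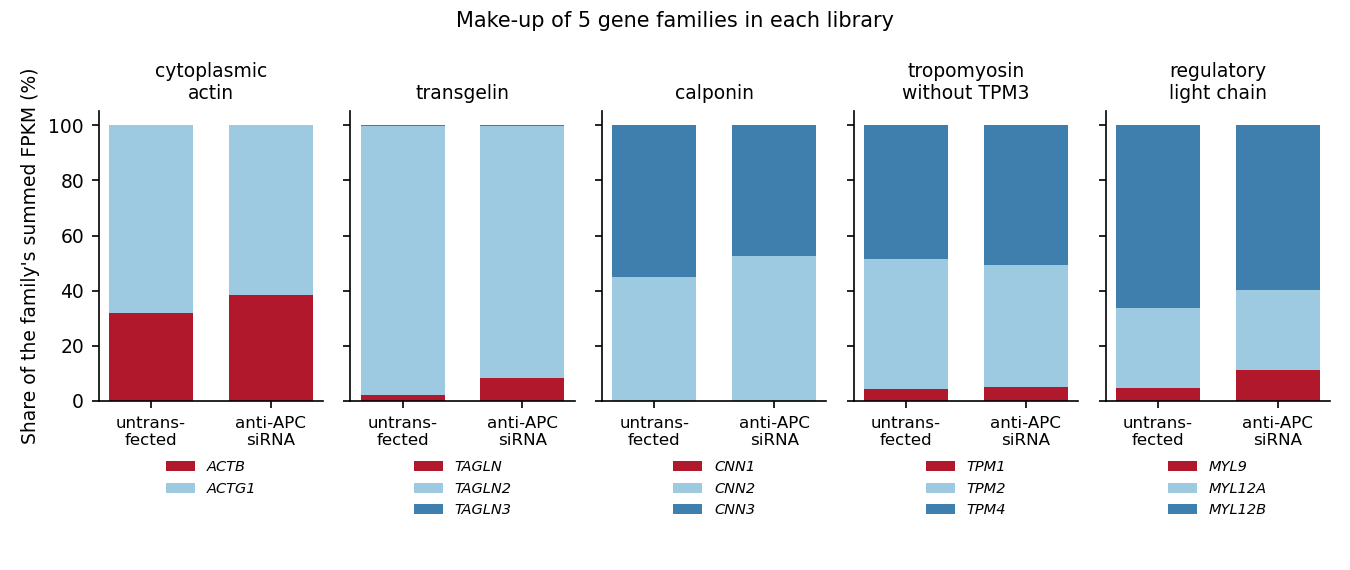
Share of each gene in the summed FPKM of its family, in percent, for the untransfected library (left bar) and the anti-APC siRNA library (right bar) of each family; TPM3 is left out because its estimate failed. ACTB, TAGLN, CNN2 and MYL9 take larger shares with anti-APC siRNA, and the 3 tropomyosin genes keep shares within a few percentage points.

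The cytoplasmic actins, which form the filaments of every non-muscle cell, had opposite directions. *ACTB* had 2124 FPKM in the anti-*APC* library against 1699 FPKM in the control, a log2 ratio of 0.32. *ACTG1* had 3393 and 3639 FPKM, a log2 ratio of -0.10. By ratio *ACTB* ranked 809 and *ACTG1* 6872 of 11815 genes. Of these genes 41.8% had a lower ratio than *ACTG1*, which so lay near the middle. Counting intervals were narrow at such depth (0.31 to 0.34 for *ACTB* and -0.11 to -0.09 for *ACTG1*), so counting error is not what limits these values. The sum of both genes was 5517 FPKM with and 5338 FPKM without anti-*APC* siRNA, a log2 ratio of 0.05. Its sign turns when the libraries are scaled to equal FPKM sums, which lowers every log2 ratio by 0.06. *MIR4461* alone holds 50.3% with and 49.2% without anti-*APC* siRNA of the FPKM sums used for that scaling. Centring on the median of all genes instead raises every log2 ratio by 0.05. The share of *ACTB* in the sum of both actin genes was 38.5% with and 31.8% without. The muscle actins were far lower, at 6.34 and 5.29 FPKM for *ACTA1* and at 1.85 and 2.20 FPKM for *ACTA2*, while *ACTC1* and *ACTG2* stayed under 0.06 FPKM in both libraries.

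*ACTB* lies on chromosome 7 from 5566040 to 5603533 and *ACTG1* on chromosome 17 from 79476439 to 79490873, both on the minus strand. Their coding sequences have the same length of 1125 bases and differ at 98 of them, a 91.3% identity. The opening 90 coding bases are shown because the few residues that separate β-actin from γ-actin lie at this end of the protein, with capitals at the 17 differing bases.
ACTB: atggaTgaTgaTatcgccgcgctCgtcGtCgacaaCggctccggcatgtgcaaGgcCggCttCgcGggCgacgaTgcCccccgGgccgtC
ACTG1: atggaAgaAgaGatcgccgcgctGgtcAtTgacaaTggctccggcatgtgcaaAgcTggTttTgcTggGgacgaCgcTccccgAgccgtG

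In spite of this likeness only 2.25% of the 36-base stretches of *ACTB* occur in *ACTG1* transcripts. Other copies share more. In all, 22.5% of the 36-base stretches of *ACTB* and 15.0% of those of *ACTG1* occur in transcripts of other genes, and GENCODE 44 lists 12 pseudogenes named after *ACTB* and 21 named after *ACTG1*. *POTEE* and *POTEF*, genes of the POTE family that carry an actin-like part, showed log2 ratios of 0.31 and 0.30, beside 0.32 for *ACTB*. *POTEE* had 32.0 FPKM with and 25.8 FPKM without anti-*APC* siRNA, and *POTEF* 8.06 and 6.53 FPKM. How the authors' counting divided reads between *ACTB* and these copies was not tested, so the levels of *ACTB* and *ACTG1* are uncertain.

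Calponins bind actin filaments and steady them. *CNN2*, the form of non-muscle cells, had 124 FPKM in the anti-*APC* library against 90.4 FPKM in the control. Its log2 ratio of 0.45 (counting interval 0.40 to 0.51) ranked 412 of 11815, and its 1.37-fold difference was the largest of the 10 genes after *TAGLN*, *CNN1* and *MYL9*. *CNN3*, the acidic calponin, had 111 FPKM in both libraries. *CNN1*, the smooth muscle calponin, was barely detected, at 0.229 FPKM with and 0.0785 FPKM without anti-*APC* siRNA. At the worth of 1 read in each library these are 8 and 3 reads, and the counting interval of the fold, 0.701 to 17.1, includes 1. A difference in *CNN1* was therefore not detectable at this depth, and *CNN1* did not pass the minimum of 1 FPKM.

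*CNN2* lies on chromosome 19 from 1026585 to 1039067 and *CNN1* on the same chromosome from 11649582 to 11661138, both on the plus strand. *CNN2* overlaps an unnamed gene on the opposite strand that holds 14.3% of its 36-base stretches, and GENCODE 44 lists 12 *CNN2* pseudogenes. In all, 18.5% of the 36-base stretches of *CNN2* occur in transcripts of other genes. How reads of these stretches were assigned was not tested, so the level of *CNN2* is uncertain. No 36-base stretch of *CNN1* occurs in another gene. The coding sequences of *CNN1* and *CNN2* are 69.1% identical over 883 aligned bases.

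Tropomyosins lie along the groove of the actin filament and govern which myosins and severing proteins reach it. *TPM2* had 178 FPKM in the anti-*APC* library against 185 FPKM in the control, a log2 ratio of -0.06 whose counting interval, -0.11 to 0.0023, includes 0. *TPM1* had 20.3 and 16.8 FPKM, a log2 ratio of 0.27 (counting interval 0.09 to 0.45). The authors' software marked the *TPM1* row as LOWDATA, so its level is less certain than the others. *TPM4* had 205 and 189 FPKM. *TPM3* is listed at 0 in both libraries with the status FAIL, which is a failed estimate and says nothing of its level. The sum of *TPM1*, *TPM2* and *TPM4* was 403 FPKM with and 391 FPKM without anti-*APC* siRNA, and this sign turns likewise under equal FPKM sums. *TPM1* lies on chromosome 15 from 63334819 to 63364114 on the plus strand, and *TPM2* on chromosome 9 from 35681989 to 35690053 on the minus strand.

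*VCL* encodes vinculin, which ties actin filaments to integrin adhesions and to cadherin junctions. It had 78.1 FPKM in the anti-*APC* library against 65.2 FPKM in the control, a log2 ratio of 0.26 (counting interval 0.22 to 0.30). *VCL* lies on chromosome 10 from 75754951 to 75881121 on the plus strand. Its canonical transcript has 22 exons, and no 36-base stretch of it within the table's locus occurs in another gene. *AP3M1*, which encodes a subunit of a vesicle adaptor, overlaps the 3′ end of *VCL* on the opposite strand in GENCODE 44 but not in the table, and had a log2 ratio of 0.23.

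**Figure D3:**
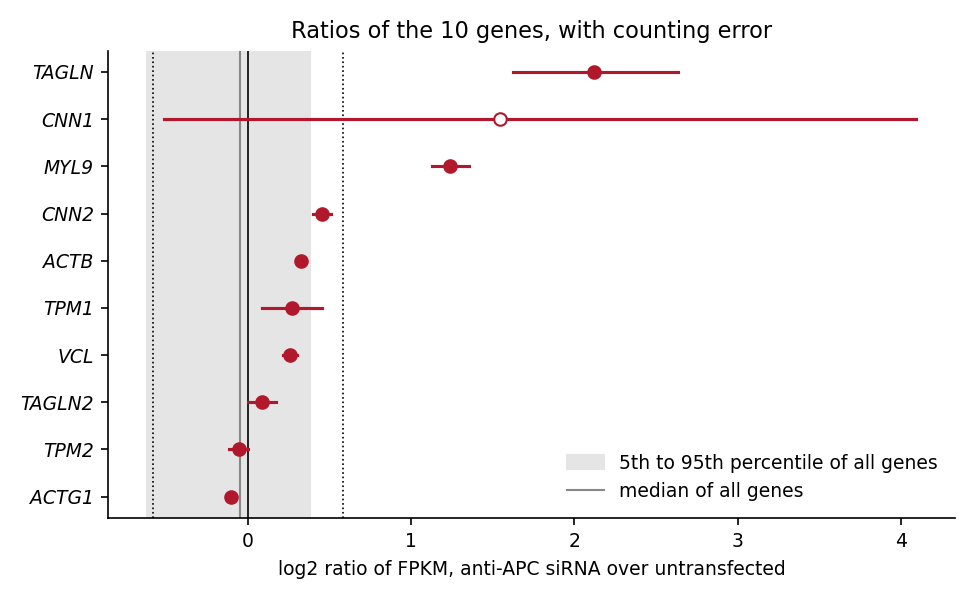
Log2 ratio of FPKM, anti-APC siRNA over untransfected, for each gene; bars are 95% intervals of counting error, the open point is CNN1 (under 1 FPKM), dotted lines mark 1.5-fold, and the band holds the 5th to 95th percentile of all 11815 genes. TAGLN and MYL9 lie to the right of the 1.5-fold line with their whole interval, CNN2 lies between the band and that line, and ACTG1 and TPM2 lie just below 0.

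Of the 10 genes, 9 reached 1 FPKM in each library. Of these 9, 2 (*TAGLN* and *MYL9*) were at least 1.5-fold higher and 0 were at least 1.5-fold lower. That threshold was met by 2.29% of all 11815 genes in the higher direction and by 5.76% in the lower. At a ratio of 5/4, *CNN2* and *ACTB* joined them, which made 4 of 9 higher and 0 lower, beside 6.86% and 17.5% of all genes. *ACTB* sits on that line and drops below it, at a log2 ratio of 0.26, when the libraries are scaled to equal FPKM sums. Higher values of any size were seen in 7 of the 9 genes and in 41.6% of all genes, and *ACTG1* and *TPM2* were the genes with lower values. The median log2 ratio of the 9 genes was 0.27, beside -0.05 for all genes. Since the genes were chosen with these values known, nothing is read from these counts about the set.

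The 11 paralogs of these genes, 7 of which passed the minimum, had a median log2 ratio of 0.03. Of these 7, 0 differed by 1.5-fold in either direction, beside 8.04% of all genes. Few calls would fall among 7 genes at that share.

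Of the 10 genes, 7 had a mean of at least 50 FPKM over the 2 libraries. At this level 1 of the 7 (*MYL9*) was at least 1.5-fold higher and 0 were lower, beside 2.58% and 3.16% of the 2089 genes as abundant. The plot of level against ratio shows *MYL9* beyond 1.5-fold. At a mean of at least 50 FPKM, 5.74% of genes were past 1.5-fold in either direction, against 8.04% of all 11815 genes. In the higher direction, that of *MYL9*, the shares were 2.58% and 2.29%. The smaller share at high levels thus came from the lower direction, with 3.16% and 5.76%.

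**Figure D4:**
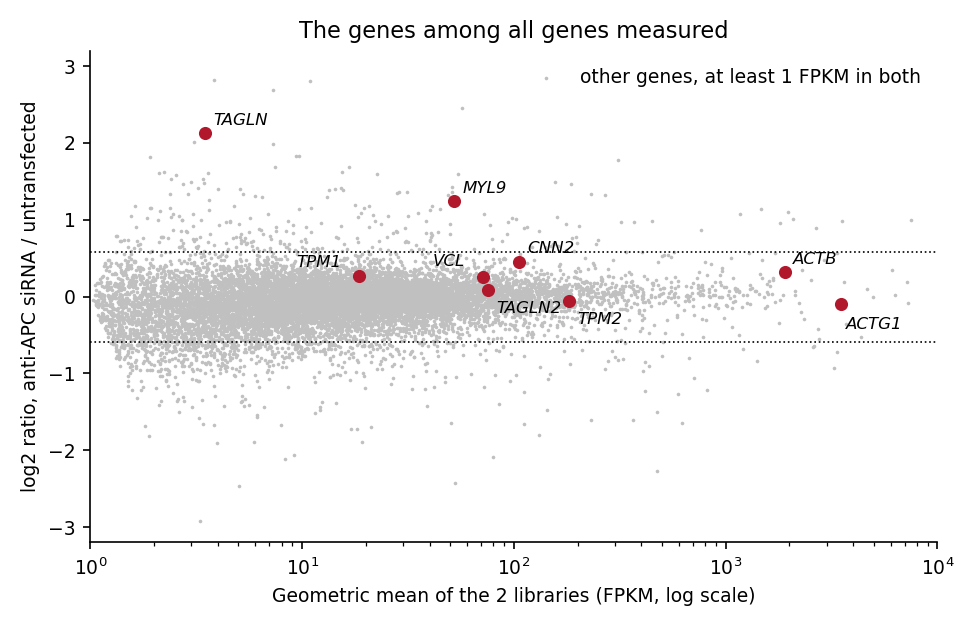
Log2 ratio (anti-APC siRNA over untransfected) against the geometric mean of the 2 libraries in FPKM on a log scale, for genes with at least 1 FPKM in both; red points are the described genes, dotted lines mark 1.5-fold, and 3 genes lie outside the axes. TAGLN stands among the highest ratios at a low level, MYL9 stands above the 1.5-fold line, and the other 7 red points lie between the lines.

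*SRF*, which is itself an SRF target, had 22.9 FPKM in the anti-*APC* library against 18.0 FPKM in the control, a log2 ratio of 0.35. *MKL1*, which encodes MRTF-A and shares its locus in the table with *SGSM3*, had 6.75 and 6.60 FPKM, and *MKL2*, which encodes MRTF-B, had 11.0 and 13.0 FPKM. *MYOCD*, which encodes the muscle cofactor myocardin, is listed at 0 in both. Among the ternary complex factors, *ELK1* had 20.0 and 19.5 FPKM, *ELK3* 38.2 and 38.3 FPKM, and *ELK4* 10.2 and 13.4 FPKM. Of the 7 genes of this list, 6 passed the minimum of 1 FPKM and 0 of these differed by 1.5-fold in either direction, beside 8.04% of all genes, a share at which few calls would fall among 6 genes. *SRF* was higher and *ELK4* lower by more than a ratio of 5/4, and *SRF* drops below it when the libraries are scaled to equal FPKM sums. Transcript levels do not show where MRTF proteins are in the cell, and that step was not measured.

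A list of 26 other actin cytoskeleton genes known as SRF targets had a median log2 ratio of 0.01 over the 24 that passed the minimum, beside -0.05 for all genes. Of these 24, 0 were at least 1.5-fold higher and 2 were at least 1.5-fold lower, counts near the shares of 2.29% and 5.76% of all genes. *PXN*, which encodes the adhesion adaptor paxillin, had 57.0 FPKM in the anti-*APC* library against 115 FPKM in the control, and the table places it at 1 locus with *LOC100506649* (5.40 and 6.15 FPKM). *FHL1*, which encodes a LIM domain protein of muscle and stress fibres, had 3.8 and 5.83 FPKM. The highest ratio in this list was 1.45 for *PDLIM5*, a LIM protein of stress fibres, beside 4.36 for *TAGLN* and 2.36 for *MYL9*. With ratios centred on the median of all genes, *PDLIM5* passed 1.5-fold and *FHL1* did not.

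Immediate early targets of SRF and the ternary complex factors had a median log2 ratio of 0.28 over the 9 of 12 genes that passed the minimum, beside -0.05 for all genes. Of these 9, 6 had higher and 3 had lower values, and 1 was at least 1.5-fold higher and 0 were at least 1.5-fold lower, beside 2.29% and 5.76% of all genes. *ATF3*, a stress-induced transcription factor, had 31.1 FPKM in the anti-*APC* library against 15.7 FPKM in the control. *EGR3*, named after its values were seen, had 2.16 and 0.613 FPKM and so missed the minimum in the control library. *EGR1* had 44.9 and 37.1 FPKM, and *FOS* had 4.62 and 3.59 FPKM. The genes with lower values were *JUNB*, with 19.4 and 26.2 FPKM, and *IER2* and *IER3*, with log2 ratios of -0.08 and -0.07.

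**Figure D5:**
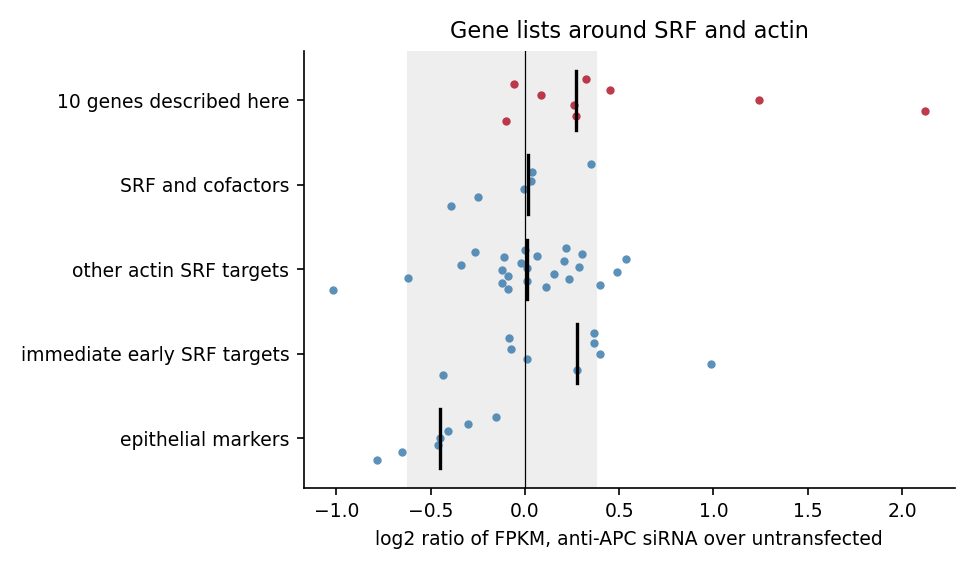
Log2 ratio of FPKM, anti-APC siRNA over untransfected, for the genes of each list shown with at least 1 FPKM in both libraries (points), with the list's median (black bar) and the 5th to 95th percentile of all genes (band). The described genes and the immediate early targets have medians of 0.27 and 0.28, the cofactors and the other actin targets lie near 0, and the 7 epithelial markers all lie below 0.

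Markers of the cells were examined beside these values, since *TAGLN*, *CNN1* and *MYL9* are abundant in smooth muscle. Epithelial markers were high, as for *EPCAM* (170 FPKM with and 190 FPKM without anti-*APC* siRNA) and *KRT8* (478 and 588 FPKM), although *VIL1* was listed at 0.0313 and 0 FPKM. Of the 8 epithelial markers 7 passed the minimum, and all 7 of these had lower values after anti-*APC* siRNA, with a median log2 ratio of -0.45. Over all genes 41.6% had higher values and the median was -0.05. Of the 7 markers 2 were at least 1.5-fold lower, beside 5.76% of all genes. *CDH1*, which encodes E-cadherin, had 12.1 and 19.0 FPKM, and *CLDN4*, which encodes a claudin of tight junctions, had 25.8 and 44.4 FPKM. The summed level of the epithelial list was 1364 FPKM with and 1757 FPKM without. The 8 smooth muscle markers summed to 17.0 and 20.4 FPKM, most of it from *SMTN*, while *MYH11* was at 0.518 and 0.589 FPKM and *DES* at 0.194 and 0.443 FPKM. The 8 fibroblast markers summed to 3.18 and 2.91 FPKM, with 7 of the 8 under 1 FPKM in both libraries. Apart from *SMTN*, *ACTA2* and *COL1A1*, every gene of these lists was under 1 FPKM in both libraries, and *MYOCD* and *LUM* were listed at 0. The part that the lower epithelial markers have in the values of the 10 genes was not tested.

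The promoters were searched for the CArG box, read on both strands at once because the motif is its own reverse complement in form. RefSeq windows on GRCh38.p14 were at hand for 7 of the 10 genes, 10 windows in all, and not for *TAGLN*, *ACTB* and *MYL9*. In the 250 bases before the start, an exact CArG box was present in the windows of *ACTG1* and *CNN2*, and in 1.16% of all 35116 windows of this length. In *ACTG1* it lies from base -94 to -85 relative to the start, and in *CNN2* from -89 to -80. No window of *CNN1*, *TAGLN2*, *TPM1*, *TPM2* or *VCL* held one, nor a box with 1 mismatch. An exact box or a box with 1 mismatch was present in 16.8% of all 35116 windows. Few would fall among the windows of these genes at that share, so nothing is read from the absence. The windows of *ACTG1* and *CNN2* are shown because they hold the box, given in capitals, and that of *CNN1* because it is the paralog of *CNN2* without one.
ACTG1 promoter, chr17:81512800-81513049 of GRCh38.p14, minus strand: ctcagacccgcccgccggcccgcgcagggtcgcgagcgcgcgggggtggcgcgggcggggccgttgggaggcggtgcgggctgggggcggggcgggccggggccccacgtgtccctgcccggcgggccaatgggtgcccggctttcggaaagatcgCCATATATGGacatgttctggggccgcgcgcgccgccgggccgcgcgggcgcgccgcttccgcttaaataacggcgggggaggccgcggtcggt
CNN2 promoter, chr19:1026358-1026607 of GRCh38.p14, plus strand: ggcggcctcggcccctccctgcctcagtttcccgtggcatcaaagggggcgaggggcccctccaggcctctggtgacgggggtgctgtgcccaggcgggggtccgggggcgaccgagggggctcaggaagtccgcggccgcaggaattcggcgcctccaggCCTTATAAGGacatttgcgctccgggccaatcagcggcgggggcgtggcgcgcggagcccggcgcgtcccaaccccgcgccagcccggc
CNN1 promoter, chr19:11538601-11538850 of GRCh38.p14, plus strand: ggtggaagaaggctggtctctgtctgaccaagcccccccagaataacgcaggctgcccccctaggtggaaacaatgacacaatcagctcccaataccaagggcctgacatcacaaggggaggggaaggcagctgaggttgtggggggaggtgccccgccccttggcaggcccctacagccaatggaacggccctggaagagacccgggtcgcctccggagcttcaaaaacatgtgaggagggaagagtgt

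Among the genes with a box, *CNN2* had a log2 ratio of 0.45 and *ACTG1* of -0.10. Whether the box goes with a direction was not tested, as windows for *TAGLN*, *ACTB* and *MYL9* were not at hand. A match is a string of letters and not a measured binding site, and windows of this length leave out boxes in introns or farther upstream.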

How the data were processed

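RNA was sequenced from HCT-116 cells in 3 single-read TruSeq libraries, and 2 are analysed here, 1 per group. The authors assigned reads with Cufflinks and compared libraries with Cuffdiff on hg19, per the labels. Versions, aligner and annotation are not given in the sources used here. The values the authors deposited are FPKM per gene, with a status. Columns of the authors' own comparison (natural log ratio, statistic, p, q and a significance mark) were not used.

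Log2 ratios of FPKM (anti-*APC* over untransfected) were computed without a pseudocount for genes that reached 1 FPKM in each library. A difference was counted at 1.5-fold. No p-value was computed, because each group has 1 library. Members and gene lists were chosen with earlier results of these data known. Genes named are all 10 members, their paralogs, SRF and cofactors, *APC*, and from each other list at most 4 genes past 1.5-fold with the largest ratios. Further genes serve as examples of a list or overlap a member, and these were chosen after their values were seen. A further list of 22 genes is not reported here and enters only the counts over all lists. Likeness of pattern was not computed over 2 libraries.

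The FPKM of 1 read was taken from the commonest log2 ratio (bins of 0.001) of genes under 0.3 FPKM, which 367 of 2622 such genes shared. Genes with 1 and 2 reads gave the depth. Read numbers used GENCODE 44 canonical transcripts on GRCh37, clipped to the table's locus. Identity was taken from global alignments, and shared stretches of 36 bases were sought on both strands of all GENCODE 44 transcripts (the read length is not given in the sources used here). The steps for depth and for the 1.5-fold call were tested on simulated data in which each gene had a known length. The clipping, alignments and shared stretches were not tested in this way. The library kit does not mark strand. Alternatives were other pseudocounts, scalings, folds and minimums. Python 3.11.15, numpy 2.4.6, pandas 2.3.3, scipy 1.17.1, Biopython 1.88 and matplotlib 3.10.9 were used.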

Additional observations from a re-analysis of the deposited data

How the results depend on the processing

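The count of genes at least 1.5-fold lower was 0 under every alternative run. The count at least 1.5-fold higher was 2 with a pseudocount of 1 FPKM, median centring, scaling to equal FPKM sums and a 2-fold threshold. It was 4 at a ratio of 5/4, 3 over genes above 0 (*CNN1* is then counted), 1 with at least 5 FPKM in both libraries (*TAGLN* is then left out) and 0 without *TAGLN* and *MYL9*, a setting added after the data were seen. The median log2 ratio of the 9 genes (0.27) was 0.26 with the pseudocount, 0.32 with median centring, 0.21 with equal FPKM sums, 0.30 over all 10 genes above 0, 0.27 (over 8 genes) with at least 5 FPKM, 0.29 without *TPM1* and 0.26 without *TAGLN* and *MYL9*, the last 2 added after the data were seen. Of the genes in the other lists 6 were past 1.5-fold, against 1 at 2-fold, 20 at 5/4 and 14 without the minimum of 1 FPKM. With median centring 2 of these genes were higher and 4 lower, against 1 and 5. At 5/4, 9 were higher and 11 lower, beside 6.86% and 17.5% of all genes. Shares of all genes at 2-fold and without the minimum are not given, so nothing is read from these counts about the lists. Of all genes 8.04% were past 1.5-fold, and 5.74% of those with a mean of at least 50 FPKM. None of the 10 genes changed sign under the pseudocount or either scaling, and 8 of the 30 values left their counting interval.

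No paired analysis was possible because each group has 1 library, and leaving out a replicate was not possible for the same reason. Scrambled siRNA as the control was not run, as that library was not analysed here. Summing genes at 1 locus left the median as it was. *MIR4461* holds 50.3% with and 49.2% without anti-*APC* siRNA of the summed FPKM, which bears on the scaling to equal sums. Depth limits *CNN1*, whose direction is not settled.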
